A study of Rattus norvegicus with 6 samples.

Results

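The Oas genes of the rat, which encode the 2′-5′-oligoadenylate synthetases and their relatives, were followed in primary heart cell cultures, labelled as cardiomyocytes of newborn rats. The members were the rows of the deposited count tables named Oas1a, Oas1i, Oas1k, Oas2, Oas3, Oasl and Oasl2, which makes 7 genes out of 18077 rows per table. Oas1k has 2 rows with the same identifier, and the row with the higher mean count was used. The labels give 3 libraries labelled Ad-RNF128, from cells that received an adenovirus labelled for overexpression of the ubiquitin ligase RNF128, and 3 labelled Ad-GFP, by its name the vector that carries green fluorescent protein, whose treatment label reads WT. What all 6 share, per the labels, is primary cells from the hearts of pups of 1 to 3 days, pre-plated and kept with BrdU to limit fibroblasts, 24 h in 500 µM palmitic acid, which is a saturated fatty acid, harvest after 48 h, and polyA RNA. The treatment text names the overexpressed gene once as RNF28 and once as RNF128. No strain, sex, pooling of pups or separate culture is given, so p-values measure the spread between these libraries, which may be technical.

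In mammals the synthetases of this family bind double-stranded RNA and join ATP into 2′-5′-linked oligoadenylates, written 2-5A. These act as second messengers of the antiviral response and are broken down by phosphodiesterases. Most genes of the family are induced by type I interferon through an interferon-stimulated response element in the promoter.

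Library totals were 17099149, 21708973 and 19253718 counts for the libraries labelled Ad-RNF128 and 16352843, 18053154 and 21332585 counts for Ad-GFP replicates 1, 2 and 3. Rnf128 itself had 1, 3 and 1 counts in the libraries labelled Ad-RNF128, against 0, 2 and 1 counts in Ad-GFP (exact two-sided permutation test, p = 0.5, where the smallest possible is 0.1), so counts of the rat gene do not bear out the label. The species of the transgene is not given, and a sequence absent from the rat build would not be counted there. All directions below are between libraries as labelled. Ad-GFP replicate 1 stood apart, with a Spearman correlation between 0.776 and 0.818 to each other library, against 0.964 to 0.989 among those, and 3551 rows without a read against 1190 to 2288. Mitochondrial genes took 3.08 to 3.32% of counts in the libraries labelled Ad-RNF128, 0.951% in Ad-GFP replicate 1 and 4.91 and 5.35% in Ad-GFP replicates 2 and 3. Ribosomal protein genes took 4.98 to 5.33% in the libraries labelled Ad-RNF128, 13.9% in Ad-GFP replicate 1 and 3.45 and 3.75% in replicates 2 and 3. The part of these shares in the values given here was not tested. Ad-GFP replicate 1 is therefore given separately at each Oas gene. Some other genes below have only a log2 change against Ad-GFP replicates 2 and 3. The label of the cells was checked against markers. The 8 cardiomyocyte markers with a row of 9 listed summed to 36.0 to 105.8 CPM (the count scaled to a library total of 1000000) in the libraries labelled Ad-RNF128, to 62.9 in Ad-GFP replicate 1 and to 387.7 and 388.8 in Ad-GFP replicates 2 and 3. Most of the difference was Tnnt2, the gene of cardiac troponin T, at 34.0 to 57.4 CPM in the libraries labelled Ad-RNF128, 13.3 CPM in Ad-GFP replicate 1 and 342.3 and 350.4 CPM in replicates 2 and 3. The other 7 markers summed to 48.4, 36.6 and 1.97 CPM in the libraries labelled Ad-RNF128, 49.5 CPM in Ad-GFP replicate 1 and 45.4 and 38.4 CPM in replicates 2 and 3. Myh6, a cardiac myosin gene, was at most 16.02 CPM in any library and 0.104 CPM in Ad-RNF128 replicate 3, where the natriuretic peptide gene Nppa was at 0. The 8 fibroblast markers summed to 10540 to 11450 CPM in the libraries labelled Ad-RNF128, to 3243 CPM in Ad-GFP replicate 1 and to 38420 and 40050 CPM in replicates 2 and 3. Most of this sum was the collagen genes Col1a1, Col1a2 and Col3a1. Dcn, Lum and Pdgfra were at most 1.22, 1.78 and 2.86 CPM in any library. Postn was at 136.5 to 188.5 CPM in the libraries labelled Ad-RNF128, 0.978 CPM in Ad-GFP replicate 1 and 347.9 and 273.5 CPM in replicates 2 and 3. For Thy1 the values were 286.7 to 305.0, 286.3, and 223.7 and 251.2 CPM in the same order.

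Against Ad-GFP replicates 2 and 3, in which the Oas genes were nearly silent, the Oas genes were higher in the libraries labelled Ad-RNF128, while Ad-GFP replicate 1 held several of them as high as or higher than the libraries labelled Ad-RNF128. Summed over the 7 members, the libraries labelled Ad-RNF128 held 931.0, 1100.0 and 992.9 CPM, Ad-GFP replicate 1 held 1031.0 CPM, and Ad-GFP replicates 2 and 3 held 2.27 and 2.58 CPM. Because whole cultures were sequenced, more RNA per cell and more cells with the RNA cannot be told apart.

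Among the Oas1 genes, which encode the small synthetases, Oas1a (ENSRNOG00000001369) was at 129.5, 141.2 and 139.4 CPM in the libraries labelled Ad-RNF128, at 267.0 CPM in Ad-GFP replicate 1 and at 0.166 and 0.281 CPM in Ad-GFP replicates 2 and 3. Ad-GFP replicate 1 was thus the highest of the 6 libraries and the other 2 controls the lowest. The ratio of the libraries labelled Ad-RNF128 to Ad-GFP replicates 2 and 3 was 600.3 with a counting interval of 316.0 to 1313 at 95% confidence, and edgeR gave a log2 change of 9.03 ± 0.16 (SE, adjusted p = 5.23e-15). Here ± is the SE that follows from the change and its F statistic, which for genes with so few reads in the controls may understate the error of counting.

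Oas1i (ENSRNOG00000069835) followed the same order. It was at 49.9, 55.8 and 53.2 CPM in the libraries labelled Ad-RNF128, at 102.1 CPM in Ad-GFP replicate 1, and at 0.0554 and 0 CPM in Ad-GFP replicates 2 and 3. The last 2 libraries held 1 count in all, so the ratio of 2095 has a counting interval of 375.8 to 82790 (edgeR adjusted p = 1.52e-13).

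Oas1k (ENSRNOG00000062846) was at 114.8, 125.9 and 110.0 CPM in the libraries labelled Ad-RNF128, at 112.9 CPM in Ad-GFP replicate 1, and at 0.831 and 0.703 CPM in Ad-GFP replicates 2 and 3. On this scale Ad-GFP replicate 1 lay between values of the libraries labelled Ad-RNF128. The log2 change against replicates 2 and 3 was 7.10 ± 0.14 (SE, edgeR adjusted p = 1.62e-14), a ratio of 154.1 with a counting interval of 107.8 to 228.5. The second row of Oas1k had 6, 15 and 5 counts in the libraries labelled Ad-RNF128, 19 counts in Ad-GFP replicate 1 and 0 counts in Ad-GFP replicates 2 and 3.

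Oas2 (ENSRNOG00000049282), which encodes a larger synthetase with a duplicated domain, behaved differently in the control that stood apart. It was at 55.1, 54.3 and 54.1 CPM in the libraries labelled Ad-RNF128, at 3.67 CPM in Ad-GFP replicate 1, and at 0 in Ad-GFP replicates 2 and 3. All 3 libraries labelled Ad-RNF128 lay above all 3 Ad-GFP libraries. The libraries labelled Ad-RNF128 were at least 715-fold higher than replicates 2 and 3, computed against a floor of 3 counts over both controls. The two-sided 95% counting interval of the same ratio has a smaller lower limit, 581.1. The libraries labelled Ad-RNF128 were 14.8-fold higher than Ad-GFP replicate 1, with a counting interval of 11.5 to 19.5 (edgeR adjusted p = 1.95e-13 without that replicate). The CPM values of Oas2 in the libraries labelled Ad-RNF128 varied little (54.5 ± 0.535, SD, n = 3).

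Oas3 (ENSRNOG00000059207), which encodes the largest synthetase, had 8, 5 and 3 counts in the libraries labelled Ad-RNF128, 4 counts in Ad-GFP replicate 1, and 1 and 0 counts in Ad-GFP replicates 2 and 3. The groups overlap, and the gene did not pass the filter on low counts. Its ratio to replicates 2 and 3 was 10.8, with a counting interval of 1.69 to 455.1. At this depth its level is close to the floor of 3 counts, so its size of change is poorly determined.

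Oasl and Oasl2 encode relatives with ubiquitin-like domains at their C-terminal end. In mice, Oasl2 protein keeps synthetase activity while the protein of Oasl1, listed in the reference table as another name of rat Oasl, lacks it. Oasl (ENSRNOG00000001187) was at 493.9, 617.2 and 548.3 CPM in the libraries labelled Ad-RNF128, at 535.8 CPM in Ad-GFP replicate 1, and at 0.831 and 0.984 CPM in Ad-GFP replicates 2 and 3. As for Oas1k, Ad-GFP replicate 1 lay between values of the libraries labelled Ad-RNF128. Against replicates 2 and 3 the log2 change of Oasl was 9.08 ± 0.16 (SE, edgeR adjusted p = 5.08e-15).

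Oasl2 (ENSRNOG00000028814) was at 87.3, 105.3 and 87.8 CPM in the libraries labelled Ad-RNF128, at 9.23 CPM in Ad-GFP replicate 1, and at 0.332 and 0.609 CPM in Ad-GFP replicates 2 and 3. Like Oas2 it was higher in each library labelled Ad-RNF128 than in any Ad-GFP library. The libraries labelled Ad-RNF128 were 10.2-fold above Ad-GFP replicate 1, with a counting interval of 8.68 to 12.1, and had a log2 change of 7.43 ± 0.18 against replicates 2 and 3 (SE, edgeR adjusted p = 2.13e-13).

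**Figure D1:**
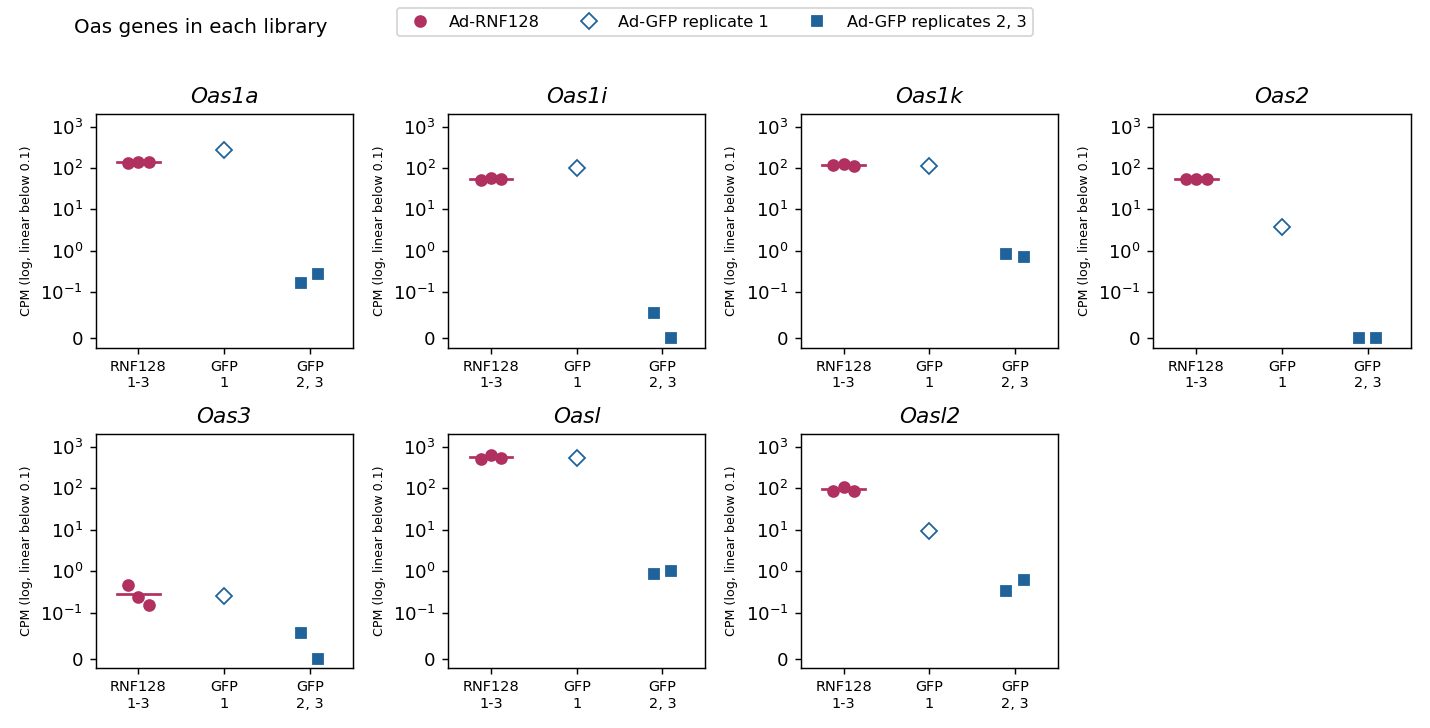
CPM of the 7 Oas genes in each library (log axis, linear below 0.1), with 3 libraries labelled Ad-RNF128 (points, line at the mean), Ad-GFP replicate 1 (open diamond) and Ad-GFP replicates 2 and 3 (squares). Oas1a at 267.0 CPM and Oas1i at 102.1 CPM in Ad-GFP replicate 1 lie above the points, and Oas2 at 3.67 CPM and Oasl2 at 9.23 CPM lie below them.

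In the comparison without Ad-GFP replicate 1, edgeR called 6 of the 7 members higher, where 28.9% of 13173 tested genes were called higher and 28.0% lower. That background split of 3812 higher and 3689 lower genes became 5367 and 2409 when only library totals were used, and the median over all tested genes was then 0.17 on the log2 scale. The 6 passed the low-count filter through the libraries in which they are high, so this count adds nothing to the values themselves. All 7 members had every library labelled Ad-RNF128 above Ad-GFP replicates 2 and 3, against 40.7% of all rows, with 19.2% of rows the other way round. Ranked by fitted log2 change among the 13173 genes, Oas2 was at rank 1, Oas1i at 4, Oasl at 11, Oas1a at 13, Oasl2 at 39 and Oas1k at 51, where the fitted value of Oas2 depends on the prior count. A log2 change of at least 7 in a called gene, a size set after these values were seen, was reached by 0.402% of the tested genes, 53 in number, with all 6 tested members among them.

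**Figure D2:**
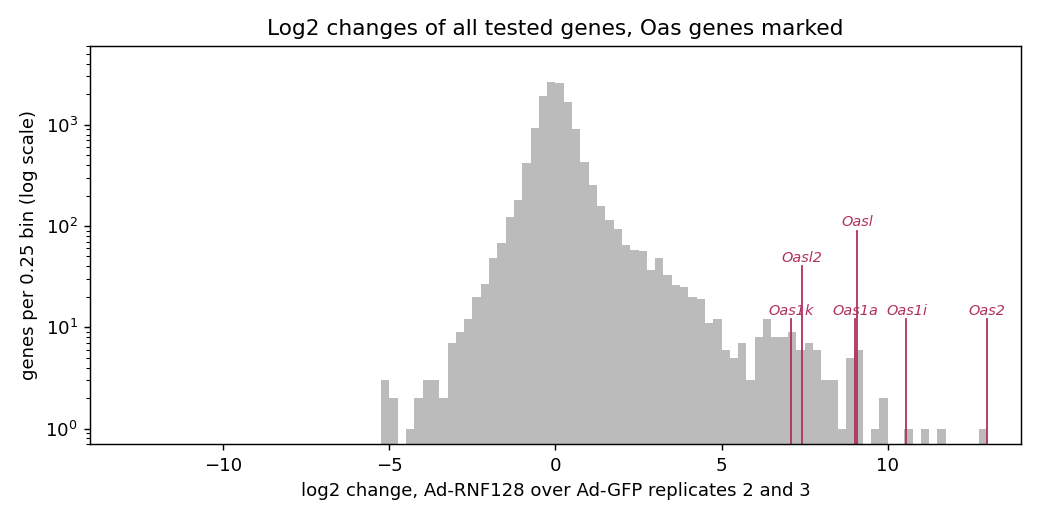
Histogram of edgeR log2 changes of the 13173 genes tested, libraries labelled Ad-RNF128 over Ad-GFP replicates 2 and 3 (gene number on a log axis), with the tested Oas genes as lines whose heights carry no value. The Oas genes lie in the upper tail at 7.10 and above. The fitted value of Oas2, with 0 control counts, depends on the prior count and is no bound.

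With all 3 Ad-GFP libraries included no member passed. edgeR called 0 of 6 tested members and 0.0% of 12863 genes in either direction, with 742 genes and none of the members at an unadjusted p under 0.05. DESeq2 called 386 genes and none of the members, and of these Oasl2 alone had an unadjusted p under 0.05 (0.0155, adjusted p = 0.219), while for Oas1a, Oas1i and Oasl it gave no p. The edgeR log2 changes were 4.16 ± 2.19 for Oas2 and 3.51 ± 1.61 for Oasl2 (SE, adjusted p = 0.681 for each). For Oas1a and Oas1i they were -0.75 ± 2.42 and -0.73 ± 2.52, and with library totals alone 0.62 and 0.64, so their sign depends on the scaling. Oas1k and Oasl had 0.26 ± 1.99 and 0.26 ± 2.29, and -0.31 each with median-of-ratios size factors.

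In CPM, 2 of the 7 members, Oas2 and Oasl2, had every library labelled Ad-RNF128 above every Ad-GFP library, a separation shown by 25.8% of all rows, with 2.98% the other way round. Each had an exact two-sided permutation p of 0.1, the smallest that 3 against 3 libraries can give. The exact p was 0.4 for Oas1a and Oas1i, 0.2 for Oas1k and Oasl and 0.3 for Oas3.

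**Figure D3:**
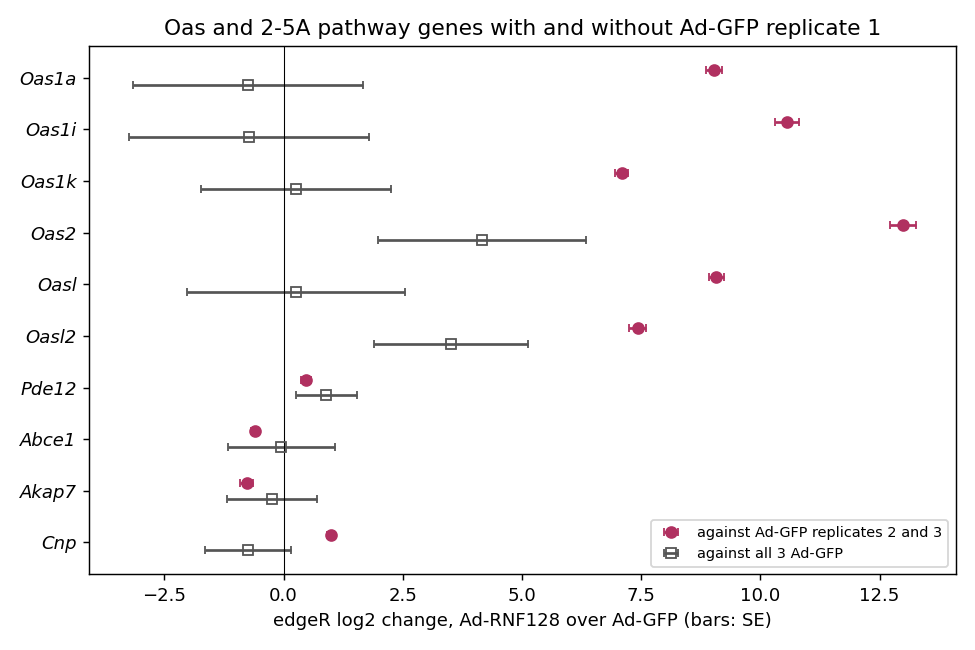
edgeR log2 changes with their SE for the 6 tested Oas genes and 4 genes of the 2-5A pathway, libraries labelled Ad-RNF128 over Ad-GFP replicates 2 and 3 (filled) and over all 3 Ad-GFP libraries (open squares). The filled points of the Oas genes lie at 7.10 or higher, whereas the open squares of Oas1a, Oas1i, Oas1k and Oasl lie within 1 SE of 0.

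Levels in Ad-GFP replicate 1 depend on the scaling, and TMM gave this library a factor of 0.47 and the libraries labelled Ad-RNF128 factors of 1.21 and 1.22. On library totals, the mean of the libraries labelled Ad-RNF128 was 0.512 times the level of Ad-GFP replicate 1 for Oas1a, 0.519 for Oas1i, 1.03 for Oas1k and for Oasl, 10.1 for Oasl2 and 14.8 for Oas2. With TMM scaling the same ratios were 0.198 for Oas1a, 0.201 for Oas1i, 0.400 for Oas1k, 0.399 for Oasl, 3.91 for Oasl2 and 5.74 for Oas2. With median-of-ratios size factors they were 0.134, 0.135, 0.270, 0.269, 2.64 and 3.88 in the same order of genes. Under each scaling Oas1a and Oas1i were lower, and Oas2 and Oasl2 higher, in the libraries labelled Ad-RNF128 than in Ad-GFP replicate 1. Oas1k and Oasl were lower in the libraries labelled Ad-RNF128 with TMM and with median-of-ratios size factors, and near 1 on library totals. Of all rows, 23.6% were higher in Ad-GFP replicate 1 than in every library labelled Ad-RNF128, so a high value there is not particular to these genes.

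Ratios of counts between members within a library do not depend on scaling. Gene length cancels between libraries only if its effect on counts is the same in each, which was not tested. Oas1a over Oas1i was 2.60, 2.53 and 2.62 in the libraries labelled Ad-RNF128 and 2.62 in Ad-GFP replicate 1, with counting intervals that all overlap. Oas1a over Oas1k was 1.13, 1.12 and 1.27 in the libraries labelled Ad-RNF128 and 2.36 in Ad-GFP replicate 1. Oas1a over Oas2 was 2.35, 2.60 and 2.58 in the libraries labelled Ad-RNF128 and 72.8 in Ad-GFP replicate 1, with a counting interval of 56.4 to 95.5. Oasl over Oasl2 was 5.66, 5.86 and 6.24 in the libraries labelled Ad-RNF128 and 58.0 in Ad-GFP replicate 1, with an interval of 49.4 to 68.6. Ad-GFP replicate 1 therefore differed from the libraries labelled Ad-RNF128 in the make-up of its Oas reads for 3 of the 4 pairs, beyond counting error, with no replicate of that library to set it against. Counting intervals can also fail to overlap within a group. For Oas1a over Oas1k they were 1.065 to 1.181 in Ad-RNF128 replicate 2 and 1.197 to 1.343 in replicate 3. Several of the pairs share Oas1a and are not separate evidence. The Oas1 genes are near copies of each other, and the sources used here do not say how reads that fit several copies were divided, which leaves the split between Oas1 genes uncertain.

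**Figure D4:**
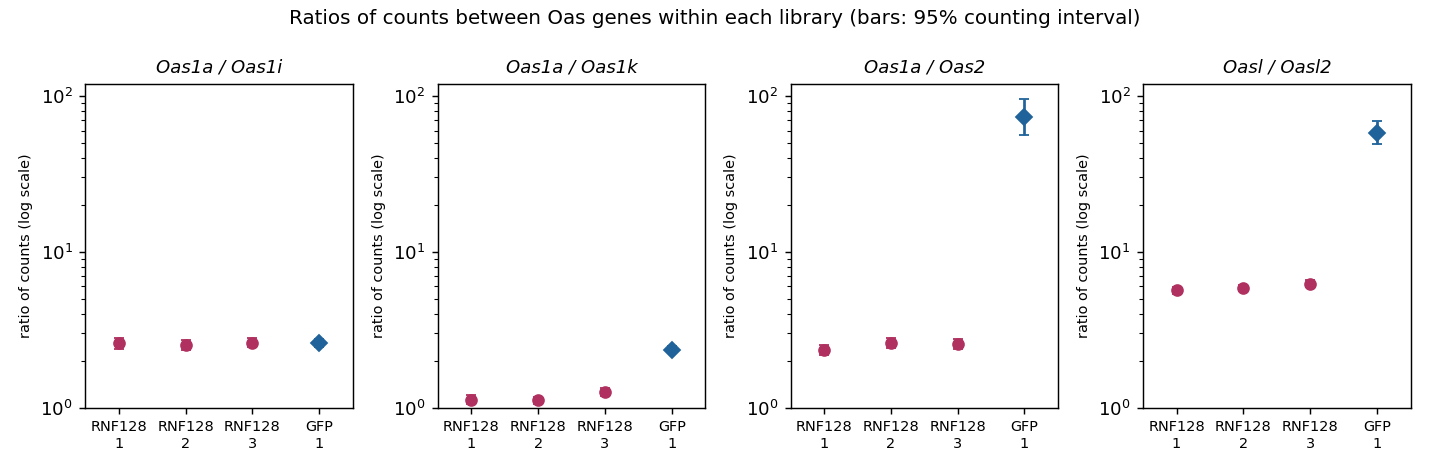
Ratios of counts between 2 Oas genes of the same library (log axis), for the 3 libraries labelled Ad-RNF128 (points) and Ad-GFP replicate 1 (diamond), with 95% counting intervals. Oas1a over Oas1i stays between 2.53 and 2.62 in all 4 libraries, whereas Oas1a over Oas2 is 72.8 and Oasl over Oasl2 is 58.0 in Ad-GFP replicate 1.

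By the root mean square difference of centred log2(CPM + 0.5) profiles over the 6 libraries, the nearest member to Oas2 was Oasl2 (0.222) and the nearest to Oas1a was Oas1i (0.444). Oas1k and Oas1i were nearest to each other (0.395). Oas3 was far from all, its nearest member being Oasl2 at 2.74. Its CPM was at most 0.468 in any library, below the 0.5 that is added. This flattens its profile, so the distance reflects its low counts and does not show a different order of libraries. Among 10792 other rows with a symbol and a mean of at least 1 CPM, the 5 genes nearest to the median profile of the members were Apol9a (0.389), the interferon-induced protease gene Usp18 (0.447), Dhx58 (0.505), which encodes the RNA-binding regulator LGP2, the interferon regulatory factor gene Irf7 (0.524) and the chemokine gene Cxcl10 (0.609). Apol9a was at 294.9, 338.1 and 303.2 CPM in the libraries labelled Ad-RNF128, at 355.5 CPM in Ad-GFP replicate 1, and at 1.39 and 1.50 CPM in Ad-GFP replicates 2 and 3. This likeness is a description over 6 libraries of which 1 stands apart.

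The family lies on chromosome 12 in RefSeq, where in the order of the GRCr8 assembly the genes run Oas1i, Oas1d, Oas1a, Oas1h, Oas1f, Oas1b, Oas1e, Oas1k, Oas3 and Oas2, with Oasl and Oasl2 as neighbours elsewhere on the chromosome. The files' build is mRatBN7.2, so this order and the sequences below are credited to the reference tables and not to the files. Oas1d, Oas1e, Oas1f and Oas1h, which lie in the array between members, had at most 9 counts in any library. Oas1h (ENSRNOG00000057769) had 8, 9 and 4 counts in the libraries labelled Ad-RNF128, 3 counts in Ad-GFP replicate 1 and 0 counts in Ad-GFP replicates 2 and 3. Oas1e had 4, 3 and 2 counts in the libraries labelled Ad-RNF128, 5 counts in Ad-GFP replicate 1, and 0 and 1 counts in replicates 2 and 3. Oas1f had 2, 5 and 1 counts in the libraries labelled Ad-RNF128, against 3, 0 and 0 counts in Ad-GFP, and Oas1d had 0, 2 and 0 counts against 1, 0 and 1. None of these 4 genes passed the low-count filter.

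Promoter windows of 300 bases, 250 before to 50 after the gene start, were in the reference table for 5 of the 7 members. They were searched on both strands for GAAA, any 2 bases (NN) and GAAA again, the core letters of an interferon-stimulated response element. Of 33469 such windows in the rat table, 3.92% held it, and of the 5 members Oas1a, Oas1i, Oas3 and Oasl2 held it while Oasl did not. Oas1a and Oas1i each held 2 matches that overlap by 4 bases, starting 41 and 35 bases before the start of Oas1a and 36 and 30 bases before that of Oas1i. Oas3 held 1 match 95 bases before its start, and Oasl2 held 1 on the other strand, 151 bases before its start. The windows of Oas1a and Oas1i shared 248 identical bases of 300 in a global alignment, fewer than the pairs Oas1e and Oas1h (271), Oas1d and Oas1h (262) and Oas1d and Oas1e (251), whose genes had few reads. The windows of Oas1a, Oas1i and Oasl2, which hold the motif, and of Oasl, which does not, are shown because these 4 genes were all high in the libraries labelled Ad-RNF128. They read 5′ to 3′ along the gene, with the matched letters in capitals. They lie at chr12:41330216-41330515 on the plus strand, chr12:41284976-41285275 on the plus strand, chr12:47383136-47383435 on the minus strand and chr12:47356243-47356542 on the minus strand of GRCr8.
Oas1a: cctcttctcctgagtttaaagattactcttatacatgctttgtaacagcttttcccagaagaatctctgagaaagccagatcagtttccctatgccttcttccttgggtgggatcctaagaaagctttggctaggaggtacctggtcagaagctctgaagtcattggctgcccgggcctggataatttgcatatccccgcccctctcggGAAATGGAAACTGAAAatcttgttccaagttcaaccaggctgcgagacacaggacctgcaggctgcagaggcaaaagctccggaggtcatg
Oas1i: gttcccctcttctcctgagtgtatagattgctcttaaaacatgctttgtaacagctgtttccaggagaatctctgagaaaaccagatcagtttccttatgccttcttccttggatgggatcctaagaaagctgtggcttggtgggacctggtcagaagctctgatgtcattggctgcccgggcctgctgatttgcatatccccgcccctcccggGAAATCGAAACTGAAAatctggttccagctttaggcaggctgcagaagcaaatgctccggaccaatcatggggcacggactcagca
Oasl2: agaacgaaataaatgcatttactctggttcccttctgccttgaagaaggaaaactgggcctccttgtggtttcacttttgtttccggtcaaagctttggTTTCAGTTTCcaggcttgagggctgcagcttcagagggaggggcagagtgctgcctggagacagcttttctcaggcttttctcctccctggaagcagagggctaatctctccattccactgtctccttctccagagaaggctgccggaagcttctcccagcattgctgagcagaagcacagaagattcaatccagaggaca
Oasl: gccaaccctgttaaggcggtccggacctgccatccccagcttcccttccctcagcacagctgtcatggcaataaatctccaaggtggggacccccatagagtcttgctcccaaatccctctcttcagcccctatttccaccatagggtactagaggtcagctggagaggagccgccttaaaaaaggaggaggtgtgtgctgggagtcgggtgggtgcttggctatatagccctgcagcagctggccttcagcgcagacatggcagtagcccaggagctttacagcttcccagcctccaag

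The windows of Oas1d, Oas1e, Oas1f and Oas1h, the genes with few reads, held no match. A stretch of 45 bases that begins at the letters CCGCCC in each shows the place next to which the motif lies in Oas1a and Oas1i, with matched letters in capitals. A match is only a match of letters, and its absence says only that these letters are not in this window. The stretches lie in GRCr8 at chr12:41330412-41330456 (Oas1a, plus strand), chr12:41285177-41285221 (Oas1i, plus strand), chr12:41318578-41318622 (Oas1d, minus strand), chr12:41410915-41410959 (Oas1e, plus strand), chr12:41366963-41367007 (Oas1f, minus strand) and chr12:41354013-41354057 (Oas1h, minus strand).
Oas1a: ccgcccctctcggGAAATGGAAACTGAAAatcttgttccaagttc
Oas1i: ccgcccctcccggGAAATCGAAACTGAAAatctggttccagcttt
Oas1d: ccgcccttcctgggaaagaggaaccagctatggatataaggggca
Oas1e: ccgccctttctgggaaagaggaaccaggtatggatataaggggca
Oas1f: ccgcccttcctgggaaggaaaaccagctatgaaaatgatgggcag
Oas1h: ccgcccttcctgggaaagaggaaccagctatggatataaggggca

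Of the genes listed for the 2-5A pathway 4 are given here. Against Ad-GFP replicates 2 and 3, 2 of the 4 rose and 2 fell, with a median log2 change of -0.066 beside 0.015 over all tested genes, and where 28.9% of all genes were called higher and 28.0% lower. With all 6 libraries 0 of the 4 passed edgeR's test, and the median was -0.14.

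Pde12, which encodes a phosphodiesterase that degrades 2-5A, was at 17.3, 19.0 and 18.3 CPM in the libraries labelled Ad-RNF128, at 1.04 CPM in Ad-GFP replicate 1, and at 10.97 and 12.6 CPM in Ad-GFP replicates 2 and 3. It rose by a log2 change of 0.47 ± 0.11 against replicates 2 and 3 (SE, edgeR adjusted p = 0.00205). Akap7, whose product degrades 2-5A in mice, was at 14.21, 13.8 and 9.71 CPM in the libraries labelled Ad-RNF128, at 0.489 CPM in Ad-GFP replicate 1, and at 17.7 and 20.8 CPM in replicates 2 and 3 (log2 change -0.78 ± 0.14, edgeR adjusted p = 0.000285). Abce1, an ATPase of ribosome recycling, was at 198.0, 194.7 and 170.7 CPM in the libraries labelled Ad-RNF128, at 2.87 CPM in Ad-GFP replicate 1, and at 281.6 and 230.9 CPM in replicates 2 and 3 (log2 change -0.60 ± 0.08, edgeR adjusted p = 1.72e-05). Cnp, a phosphodiesterase of the same superfamily as Akap7, was at 106.1, 104.4 and 110.4 CPM in the libraries labelled Ad-RNF128, at 166.6 CPM in Ad-GFP replicate 1, and at 44.5 and 51.9 CPM in replicates 2 and 3 (log2 change 0.99 ± 0.08, edgeR adjusted p = 1.20e-07). Pde12, Akap7 and Abce1 were each lowest in Ad-GFP replicate 1, as were 52.3% of all rows.

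Other genes listed for double-stranded RNA sensing were mostly higher. Against Ad-GFP replicates 2 and 3, 8 of 10 listed genes with a row rose and 0 fell, where 28.9% of all tested genes were called higher and 28.0% lower. The median log2 change of the 10 was 1.68, beside 0.015 over all tested genes. Dhx58 was at 61.7, 69.4 and 59.3 CPM in the libraries labelled Ad-RNF128, at 27.9 CPM in Ad-GFP replicate 1, and at 0.554 and 0.188 CPM in replicates 2 and 3, with a log2 change of 7.30 ± 0.20 (SE, edgeR adjusted p = 4.53e-13). Its log2 change was the largest of the 10. Ifih1 was at 72.2, 77.4 and 65.5 CPM in the libraries labelled Ad-RNF128, at 1.04 CPM in Ad-GFP replicate 1, and at 8.25 and 6.70 CPM in replicates 2 and 3. Eif2ak2 was at 527.7, 556.9 and 470.3 CPM in the libraries labelled Ad-RNF128, at 2.26 CPM in Ad-GFP replicate 1, and at 137.3 and 112.5 CPM in replicates 2 and 3. Both were thus lowest in Ad-GFP replicate 1, as were 52.3% of all rows, while Oas1a was highest there. On library totals, Ddx58, Adar, Tlr3, Mavs and Prkra of the same list were also lowest in that library. TMM gave that library a factor of 0.47 and the other libraries 1.08 to 1.22, which raises its values relative to theirs. Whether the order holds under TMM was not computed for these genes. The log2 changes, all with edgeR SE and adjusted p under the threshold of 0.05, were 3.12 ± 0.11 for Ifih1 (MDA5), 2.46 ± 0.08 for Ddx58 (RIG-I), 1.902 ± 0.09 for Eif2ak2 (the kinase PKR) and 1.46 ± 0.07 for the RNA editing gene Adar. They were 0.95 ± 0.23 for the endosomal receptor gene Tlr3, 0.29 ± 0.09 for Tarbp2, whose product binds PKR, and 5.57 ± 0.79 for Zbp1, a nucleic acid sensor with 1 count in both controls together. The values of Mavs, the adaptor of RIG-I and MDA5, and of Prkra, an activator of PKR, were -0.20 ± 0.09 and -0.10 ± 0.07 and did not pass (edgeR adjusted p = 0.065 and 0.262). With all 6 libraries none of the 10 passed, and the median log2 change was 1.46 beside -0.017 over all tested genes. In CPM, Tarbp2 was higher in Ad-GFP replicate 1 (127.2) than in the libraries labelled Ad-RNF128 (26.9 to 29.55). On library totals, the other genes of this list given here were lower in Ad-GFP replicate 1 than in each library labelled Ad-RNF128. Their order under TMM scaling, Dhx58 included, was not computed.

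In the list of nucleotidyltransferases related to the synthetases and of nucleic acid sensing, 3 genes with a row are given here, of which 2 rose and 1 fell against Ad-GFP replicates 2 and 3. Of all tested genes 28.9% were called higher and 28.0% lower there, so these 3 show no more than their own values. Cgas, a DNA sensor with the same enzyme fold, had a log2 change of 0.87 ± 0.10 (SE, edgeR adjusted p = 4.84e-06), and its partner Sting1 1.67 ± 0.27 (edgeR adjusted p = 9.71e-05). Ilf2 fell by 0.38 on the log2 scale (edgeR adjusted p = 0.000617). In Ad-GFP replicate 1 Cgas was at 0.55 CPM, Sting1 at 5.198 CPM and Ilf2 at 10.33 CPM. The means of the libraries labelled Ad-RNF128 were 24.1, 4.496 and 46.63 CPM in the same order.

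Among interferon signalling genes, 9 of the 12 with a row rose and 2 fell against Ad-GFP replicates 2 and 3. Of all tested genes 28.9% were called higher and 28.0% lower. The median log2 change of the 12 was 0.66, against 0.015 over all tested genes. The 4 with the smallest p were Irf7, Usp18, Stat2 and Irf1. Irf7 and Usp18 had the log2 changes 6.95 ± 0.10 and 7.82 ± 0.13 (SE, edgeR adjusted p = 2.02e-15 and 3.01e-15). In Ad-GFP replicate 1 Irf7 was at 3775 CPM, above the 1853 to 2101 CPM of the libraries labelled Ad-RNF128. On library totals Usp18 was at 398.6 CPM there, below their 438.5 to 510.4 CPM. Stat2, a subunit of the factor that binds the interferon-stimulated response element, was at 404.7, 445.0 and 437.8 CPM in the libraries labelled Ad-RNF128, at 258.8 CPM in Ad-GFP replicate 1, and at 81.2 and 91.2 CPM in Ad-GFP replicates 2 and 3. On library totals its groups thus did not overlap, a separation shown by 25.8% of all rows. With TMM scaling and all 6 libraries its log2 change was 0.58 ± 0.85 (SE, edgeR adjusted p = 0.908). Irf1, an interferon-induced transcription factor gene, had a log2 change of 0.82 ± 0.09 (SE, edgeR adjusted p = 1.32e-06). It was at 31.13 CPM in Ad-GFP replicate 1, against 49.83 to 55.18 CPM in the libraries labelled Ad-RNF128. TMM gave this replicate a factor of 0.47 and the libraries labelled Ad-RNF128 factors of 1.21 and 1.22, which raises its values relative to theirs. The orders of Usp18, Stat2 and Irf1 are therefore those on library totals, and their levels under TMM were not computed. With all 6 libraries 0 of the 12 passed, and the median was 0.20.

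Of the interferon ligand list 2 genes had a row. Ifnb1, the gene of interferon beta, was at 1.81, 2.63 and 1.14 CPM in the libraries labelled Ad-RNF128 and at 0 in all 3 Ad-GFP libraries. Every library labelled Ad-RNF128 thus lay above every Ad-GFP library, a separation shown by 25.8% of all rows. Ifnb1 was at least 24.9-fold higher than in Ad-GFP replicates 2 and 3 on the floor of 3 counts over both. The lower limit of the two-sided 95% counting interval was 19.9 (edgeR adjusted p = 1.44e-05 without Ad-GFP replicate 1). With all 6 libraries it did not pass (log2 change 7.95 ± 0.95, SE, edgeR adjusted p = 0.176). It passed the low-count filter only through the libraries in which it is high. In Ad-GFP replicate 1, Ifnb1 was at 0 while Oas1a was at 267.0 CPM, and 3 counts there would be 0.183 CPM. Ifne was at 0.292, 0.553 and 0.364 CPM in the libraries labelled Ad-RNF128, at 0 in Ad-GFP replicate 1, and at 0.111 and 0.0469 CPM in replicates 2 and 3, and was not tested.

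White blood cells, another source of Oas transcripts, had few marker reads. The 6 macrophage and leukocyte markers with a row of 7 listed summed to 21.9, 22.2 and 22.3 CPM in the libraries labelled Ad-RNF128, to 34.9 CPM in Ad-GFP replicate 1 and to 16.7 and 16.5 CPM in replicates 2 and 3, most of it Cd14. The defining genes Ptprc and Adgre1 were at most 0.156 and 0.117 CPM in any library and at 0 in all 3 Ad-GFP libraries. Aif1 of the same list was at 0.673 CPM in Ad-GFP replicate 1 and at most 0.0585 CPM in any other library. Against replicates 2 and 3, 2 of 3 tested markers rose, beside 28.9% of all tested genes. They were Cd68 (log2 change 1.41 ± 0.45, SE, edgeR adjusted p = 0.0153) and Csf1r. Csf1r was at 2.22, 2.67 and 1.97 CPM in the libraries labelled Ad-RNF128, at 0.245 CPM in Ad-GFP replicate 1, and at 0.388 and 0.469 CPM in replicates 2 and 3. The 5 endothelial markers summed to at most 1.43 CPM in any library. The 4 smooth muscle markers summed to 5020 to 5590 CPM in the libraries labelled Ad-RNF128, to 4694 CPM in Ad-GFP replicate 1 and to 5240 and 5826 CPM in replicates 2 and 3, and the 6 skeletal myogenic markers to 46.6 to 47.8 CPM in the libraries labelled Ad-RNF128, to 72.0 CPM in Ad-GFP replicate 1 and to 115.2 and 118.2 CPM in replicates 2 and 3. The part of these levels in the Oas values was not tested.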

How the data were processed

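RNA sequencing libraries were made from 1.5 µg of RNA, per the labels' protocols. HTSeq 0.13.5, HISAT2 without a version and the build mRatBN7.2 are listed, per the submitters' processing notes. The sources used here do not give the strand setting, and overlapping and antisense genes cannot be told apart. The authors deposited unnormalized counts per gene, all whole except 1 value (344.5) in Ad-GFP replicate 1. For that value alone the deposited column was handled like expected counts and rounded, and no source says that its counts were estimated. Each table holds 18077 rows, of which 106 repeat an earlier identifier.

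CPM is a count times 1000000 over the library total. edgeR 4.0.16 in R 4.3.3 was run on the counts of all rows that passed filterByExpr, with TMM scaling, a quasi-likelihood F-test and Benjamini-Hochberg adjustment over all tested genes at 0.05, for 3 libraries labelled Ad-RNF128 against 3 Ad-GFP and against Ad-GFP replicates 2 and 3, where the spread is pooled over both groups. Exact two-sided permutation tests used scipy 1.17.1. Counting intervals for ratios are exact binomial at 95%, and the floor is 3 counts. Both cover counting error only. Alternatives were DESeq2 1.42.0, scaling by median-of-ratios or by library totals alone, no low-count filter, a stricter filter (10 counts in 3 libraries and a mean CPM of 1), a replicate block and leaving out each library. Promoter sequences and gene order come from RefSeq tables of GRCr8, matched by symbol, with identity from Biopython 1.88 global alignments.

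The members, the lists, the separate treatment of Ad-GFP replicate 1 and the naming rule were chosen with earlier results of these data known. The rule names the members, every other Oas row, each gene of the 2-5A and double-stranded RNA sensing lists, up to 4 genes with the smallest p of the interferon signalling and ligand lists, and the 5 nearest profiles. Some genes of these lists are not reported here, and counts and medians of lists leave them out.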

Additional observations from a re-analysis of the deposited data

How the results depend on the processing

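Without Ad-GFP replicate 1, edgeR called 7501 genes in place of 0 and 6 Oas members in place of 0, and 7 in place of 2 members had groups that do not overlap. Over the 3 Ad-GFP libraries, library totals alone gave 8 called genes and DESeq2 gave 386. Leaving out each library in turn gave 0 to 7501 called genes, 0 to 6 called members and 2 to 7 members without overlap. In the comparison without Ad-GFP replicate 1, 7501 genes and 6 members were called, and under its 11 alternatives every call and direction of the 6 tested Oas genes and of the 4 pathway genes stayed. The log2 changes of the Oas genes ranged from 8.71 to 9.50 for Oas1a, from 9.62 to 12.99 for Oas1i, from 6.998 to 7.25 for Oas1k, from 12.35 to 13.05 for Oas2, from 8.95 to 9.24 for Oasl and from 7.07 to 7.98 for Oasl2, with adjusted p of at most 1.25e-10. Without a low-count filter Oas3 was also called (log2 change 3.01, edgeR adjusted p = 0.041).

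With all 6 libraries several signs turned, and the cause was not tested. The median log2 change of all genes was -0.16 under median-of-ratios scaling, 0.35 with library totals alone and -0.017 with TMM. With library totals alone the log2 changes were 0.62 for Oas1a, 0.64 for Oas1i, 0.13 for Abce1 and 0.29 for Cnp. Median-of-ratios size factors gave -0.31 for Oas1k and Oasl, as did DESeq2. Leaving out each library gave ranges of -0.60 to 0.48 for Abce1, -0.78 to 0.27 for Akap7, -1.16 to 0.99 for Cnp, -1.33 to 9.03 for Oas1a, -1.31 to 10.57 for Oas1i, -0.32 to 7.09 for Oas1k and -0.32 to 9.08 for Oasl.

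The labels name no pairing of libraries by replicate number. Deviations from the group means correlated by -0.169, 0.012 and -0.127 between equal numbers, and Ad-RNF128 replicate 1 correlated by 0.173 with Ad-GFP replicate 2, more than with its own number. Deviations cancel within a group and Ad-GFP replicate 1 stood apart, so these correlations cannot decide whether libraries were paired. With a replicate block over all 6 libraries 0 genes and 0 members were called, and the log2 changes that turned sign were 7.23 for Oas1a, 7.70 for Oas1i, 0.72 for Abce1, 0.31 for Akap7 and 0.072 for Cnp. In CPM, 4 members were higher in the library labelled Ad-RNF128 within every replicate number. Among them, in replicate 1, Oas1k was at 114.8 against 112.9 CPM and Oas3 had 8 against 4 counts. The share of all rows with this order was not computed, so the count is no result about the members. Without Ad-GFP replicate 1 the block gave 7795 called genes and 6 called members. Depth limits Oas3 and the other Oas1 rows, which had at most 19 counts in any library.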

Other observations

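The genes on either side of the Oas array on chromosome 12 were looked up by position in GRCr8, without regard to their values. Rph3a, next to Oas1i, had 0.117, 0.0921 and 0.312 CPM in the libraries labelled Ad-RNF128, 0.306 CPM in Ad-GFP replicate 1 and 0 in Ad-GFP replicates 2 and 3, and did not pass the low-count filter. Dtx1, next to Oas2, was at 1.05, 0.461 and 1.25 CPM in the libraries labelled Ad-RNF128, at 0.734 CPM in Ad-GFP replicate 1 and at 0 in Ad-GFP replicates 2 and 3 (edgeR adjusted p = 0.00026 against the last 2). With so few counts their size of change is poorly determined.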
